A study of Mus musculus with 12 samples.

Results

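Splicing factor genes encode the proteins that remove introns from messenger RNA precursors. The set described here holds the 60 of 13016 genes in the table whose symbols begin with Srsf, Hnrnp, Sf3a, Sf3b, Snrp followed by a letter from a to g or n, or Prpf, with a digit after Srsf, Sf3a, Sf3b and Prpf. It comprises 18 hnRNP genes, 13 Prp genes, 11 Sm and snRNP genes, 10 SR genes and 8 SF3 genes. The rule uses symbols alone, and the set was proposed with earlier results of these data known. All 60 had at least 1 RPKM (reads scaled to transcript length and library size) in at least 4 of 12 libraries and were among the 10690 genes tested.

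Messenger RNA was sequenced from mouse early thymic progenitors, the first T-lineage cells of the thymus, in 12 libraries of 100 sorted cells each, with 4 libraries per genotype. All animals were C57BL/6 and carried floxed alleles of both Ezh2 and Runx1. Control cells (Ezh2 fl/fl Runx1 fl/fl) had no Cre, dKO cells had Rag1Cre in addition, and dKO_Flt3ITD cells had Rag1Cre and the Flt3 ITD/+ genotype, 1 allele with an internal tandem duplication of this cytokine receptor. Rag1Cre acts in cells that have expressed the lymphoid gene Rag1, so recombination depends on that history, and no group carries Flt3 ITD without Rag1Cre.

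Introns are removed by the spliceosome, which is built from small nuclear ribonucleoproteins (snRNPs) and many accessory proteins. Sm proteins form a ring around the small nuclear RNAs, and SF3A and SF3B belong to the U2 snRNP that recognises the branch point. Prp proteins act mainly in the tri-snRNP and in activation of the spliceosome. SR proteins bind exons and mostly favour splice site use, while hnRNPs coat nascent RNA and often oppose it. Both families control alternative exons in developing lymphocytes, including those of the CD45 gene Ptprc.

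The DNA just before the start sites is shown for 8 genes whose levels the results turn on: Hnrnph2, Hnrnpa0, Hnrnph1, Hnrnpu, Srsf7 and Sf3b1, whose dKO_Flt3ITD libraries all lay below the controls, Snrpf, whose libraries all lay above them, and Prpf6, the most variable member. They come from RefSeq's promoter table on GRCm38.p6 and lie within the 250 bases before the start. Each is the longest stretch that no coding gene's exon covers, read 5′ to 3′ along the gene's strand. The stretches are chrX:134601126-134601178 (plus strand) for Hnrnph2, chr13:58128557-58128806 (minus) for Hnrnpa0, chr11:50376740-50376989 (plus) for the first of 5 Hnrnph1 starts and chr1:178337816-178338065 (minus) for Hnrnpu. Those of the other 4 are chr17:80207306-80207459 (minus) for Srsf7, chr1:55027482-55027728 (minus) for Sf3b1, chr10:93589707-93589908 (minus) for Snrpf and chr2:181601069-181601315 (plus) for Prpf6, whose RefSeq start lies inside the longer gene model of GENCODE. Capitals mark matches, on either strand, to 6 motifs, and adjoining or overlapping matches run together. The core RUNX motif was searched as TGTGGT and the STAT motif as TTCNNNGAA. The core ETS motif was searched as CCGGAA and the CCAAT box by its name. The E-box was searched as CACGTG and the GC box as GGGCGG.
Hnrnph2: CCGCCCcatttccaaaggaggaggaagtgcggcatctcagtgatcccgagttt
Hnrnpa0: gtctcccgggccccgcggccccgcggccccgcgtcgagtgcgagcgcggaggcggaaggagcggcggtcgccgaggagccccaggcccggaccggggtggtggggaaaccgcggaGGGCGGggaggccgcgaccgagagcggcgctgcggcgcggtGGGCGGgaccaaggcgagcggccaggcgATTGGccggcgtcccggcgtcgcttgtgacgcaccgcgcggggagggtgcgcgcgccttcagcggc
Hnrnph1: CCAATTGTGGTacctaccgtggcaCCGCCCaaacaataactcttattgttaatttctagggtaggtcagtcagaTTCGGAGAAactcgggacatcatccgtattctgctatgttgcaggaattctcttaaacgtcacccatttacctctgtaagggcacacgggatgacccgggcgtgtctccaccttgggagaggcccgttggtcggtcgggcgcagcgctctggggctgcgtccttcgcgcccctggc
Hnrnpu: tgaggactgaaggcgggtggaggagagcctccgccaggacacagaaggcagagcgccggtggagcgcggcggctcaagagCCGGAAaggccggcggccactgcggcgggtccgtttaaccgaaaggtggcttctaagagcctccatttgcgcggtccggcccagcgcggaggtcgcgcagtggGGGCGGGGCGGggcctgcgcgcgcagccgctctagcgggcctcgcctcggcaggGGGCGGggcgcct
Srsf7: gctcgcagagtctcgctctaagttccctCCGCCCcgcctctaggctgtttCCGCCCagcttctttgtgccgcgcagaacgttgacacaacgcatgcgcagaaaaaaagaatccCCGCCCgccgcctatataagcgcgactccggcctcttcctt
Sf3b1: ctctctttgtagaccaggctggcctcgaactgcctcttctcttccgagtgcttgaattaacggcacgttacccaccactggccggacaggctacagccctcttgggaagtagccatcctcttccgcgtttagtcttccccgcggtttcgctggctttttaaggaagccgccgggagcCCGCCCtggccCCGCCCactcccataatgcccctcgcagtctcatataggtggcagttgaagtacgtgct
Snrpf: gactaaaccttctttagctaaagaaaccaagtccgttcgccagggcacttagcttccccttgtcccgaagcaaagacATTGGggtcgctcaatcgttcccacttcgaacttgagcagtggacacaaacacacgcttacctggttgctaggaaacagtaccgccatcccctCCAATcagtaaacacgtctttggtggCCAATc
Prpf6: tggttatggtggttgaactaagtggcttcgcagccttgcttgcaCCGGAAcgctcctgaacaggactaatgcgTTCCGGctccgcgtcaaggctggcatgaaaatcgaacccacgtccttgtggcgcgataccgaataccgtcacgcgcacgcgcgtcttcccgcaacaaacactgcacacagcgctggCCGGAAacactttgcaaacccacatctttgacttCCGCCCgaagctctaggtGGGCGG

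Hnrnph1 was the only one of these 8 stretches with a match to TGTGGT or to TTCNNNGAA, with 1 of each. Prpf6 held 3 matches to CCGGAA and Hnrnpu 1, and Snrpf held 3 to CCAAT. RefSeq's table gave 70 promoters for 53 of the 60 genes, and none for 7, among them Hnrnpul2, Prpf18, Sf3b4, Sf3b5, Snrpb and Snrpd1. Over the whole 250 bases, CCGGAA was present in 45.7% of the 70 promoters, against 21.2% of 12189 promoters of genes in the table and 12.03% of all 32851 promoters. TGTGGT was in 5.71% of the set's promoters, 11.3% of those of table genes and 14.0% of all. The STAT motif was in 5.71%, 6.07% and 7.02% in the same order, the E-box in 11.4%, 8.17% and 6.02%, CCAAT in 48.6%, 35.7% and 33.9%, and the GC box in 64.3%, 55.3% and 32.7%. The median number of CpG dinucleotides was 20.5 in the set's promoters and 15 in those of table genes. These matches are descriptions of sequence, no binding was measured, and no test was made of the shares.

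The whole reads behind the values numbered 12924981 to 32763597 per library, and 54 of the 60 genes had at least 200 reads in every library. Summed RPKM differed between libraries, from 515638 in control 1 to 829421 in dKO 1 and 1071041 in dKO_Flt3ITD 1, with the other 9 libraries between 554475 and 666626. The total that the RPKM were divided by was 0.831 times the recovered reads in dKO_Flt3ITD 1 and 1.21 times in control 1, so each library's RPKM may carry a scale of its own. Ezh2 averaged 39.8, 22.6 and 16.4 RPKM across the control, dKO and dKO_Flt3ITD libraries, with every mutant library below every control. Runx1 averaged 21.2, 46.4 and 47.5 RPKM and was thus higher where it was to be deleted, but a value over the whole gene does not check that deletion, so groups are named here as the labels give them. All 8 progenitor markers were in the table, with Kit at 38.2 RPKM or more and Cd34 at 120.4 or more in every library, while Ccr9 was listed at 0 in dKO 1 and in 3 dKO_Flt3ITD libraries. Their summed level was 625 to 917 RPKM in control, 425 to 529 in dKO and 346 to 551 in dKO_Flt3ITD. Of 7 granulocyte markers 5 were in the table, summing to 66.4 to 243 RPKM in control, 25 to 134.7 in dKO and 37.7 to 1320.4 in dKO_Flt3ITD. The highest sum was that of dKO_Flt3ITD 4. Mpo was at 66.0 to 230 RPKM in control, 15.4 to 104.7 in dKO, and 56.5, 7.71, 12.9 and 721 in dKO_Flt3ITD. Elane was at 0 in every control library and in all dKO libraries but dKO 2, and at 8.78, 0.117, 0.0440 and 105 RPKM in dKO_Flt3ITD. Prtn3 and Ctsg averaged higher in both mutant groups than in control, and Ltf lower. Macrophage markers (7 of 8 in the table) summed to 19.2 to 66.7, 48.7 to 140.1 and 53.3 to 154 RPKM in control, dKO and dKO_Flt3ITD. Later thymocyte markers (6 of 8) summed to 16.4 to 39.6, 61.4 to 141 and 6.16 to 61.6. Most of the dKO sum was Rag2, with group means of 12.4, 84.2 and 27.8 RPKM. Cd4 and Rag1 also averaged higher in both mutant groups, at 4.04 RPKM or less. Ptcra (14.5, 5.87 and 7.75 RPKM) and Cd8a averaged lower, and Cd8b1 stayed near 0.1. Dendritic markers (4 of 5) summed to 55.4 to 110.7, 13.3 to 38.8 and 8.004 to 70.4. Nearly all of this was Flt3, also among the progenitor markers and altered in dKO_Flt3ITD, with 109.8 of 110.7 RPKM in control 4. Of natural killer and innate lymphoid markers only Nkg7 (1 of 4) was in the table, at 224 to 1841 RPKM over the 12 libraries. Of stromal markers only Krt8 (1 of 6) was, at 0 to 6.95 RPKM, and erythroid markers were not analysed here. The part of other cell types in the results below was not tested, and in bulk samples fewer cells of a type and less RNA per cell cannot be told apart. Transcripts under 1300 nt were high against longer ones in dKO_Flt3ITD 1 (a median difference of 1.02 on the log2 scale) and dKO 1 (0.42) and low in control 1 (-0.45), with the other 9 libraries between -0.29 and 0.07.

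Almost no difference between genotypes passed the test for the splicing factor genes, with 95% intervals about 1 log2 unit or more in width. Hnrnph2, an hnRNP that binds runs of guanines and regulates alternative exons, fell in dKO_Flt3ITD against control by 1.35 on the log2(RPKM + 1) scale (SE 0.33, limma, Benjamini-Hochberg adjusted p = 0.0496). It was the only one of the 60 genes that passed in any comparison, and the call was kept under only 8 of 26 alternative settings. Called genes were 1 of 60 in that comparison, where 1.5% of all 10690 genes tested passed (0.505% down), 0 of 60 in dKO against control, where 1.02% passed, and 0 of 60 in dKO_Flt3ITD against dKO, where 0% passed. At an unadjusted limma p under 0.05 stood 7 of 60 (11.7%), 1 of 60 (1.67%) and 7 of 60 (11.7%), against 13.4%, 9.18% and 7.71% of all genes, with both directions pooled. Those in dKO_Flt3ITD against control were 6 down (10%), against 5.79% of all genes, and 1 up. Log2 fold changes were positive for 24, 20 and 30 of the 60, against 50.1%, 50.7% and 50.3% of all genes. In dKO_Flt3ITD against dKO, where no gene passed, 824 genes were under that unadjusted p, and voom on the recovered reads also called 0. Each pair of comparisons has a group in common, and both comparisons with control use the same 4 controls. Whether replicates were separate animals is not stated in the labels, so the spread behind the p-values is that of these libraries and may be technical.

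Libraries without overlap between groups are a second description of the same values. All 4 dKO_Flt3ITD libraries lay on one side of all 4 controls for 10 of the 60 genes, where 7.67% of all genes did so. Snrpb, Snrpd1 and Snrpf lay above, 5% of the 60 against 4.16% of all genes, and Hnrnpa0, Hnrnph1, Hnrnph2, Hnrnpu, Sf3b1, Srsf3 and Srsf7 lay below, the latter 11.7% of the 60 against 3.51% of all genes. Between dKO and control this held for 2 of 60, Snrpb2 and Snrpd1, both above, against 6.3% of all genes (3.93% above and 2.38% below). Between dKO_Flt3ITD and dKO it held for 5 of 60, against 4.28% of all genes (2.08% above and 2.2% below): Prpf19, Sf3a2, Snrpb and Srsf4 lay above and Hnrnph2 below. These lists depended on the scale. In dKO against control none of the 60 was without overlap after rescaling to equal sums or quantile normalization, and with the length trend removed only Sf3b1 was, below. In dKO_Flt3ITD against control Snrpb stayed above and Hnrnpa0, Hnrnph1, Hnrnph2 and Sf3b1 below under all 3 of these. Snrpf lost its separation under all 3, Snrpd1 under quantile normalization and length removal, Hnrnpu under the same pair, and Srsf3 and Srsf7 under length removal. In dKO_Flt3ITD against dKO, Hnrnph2, Prpf19, Sf3a2 and Srsf4 all lost their separation after rescaling. Prpf19 lost it under quantile normalization too, and Snrpb kept it under all 3.

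**Figure D1:**
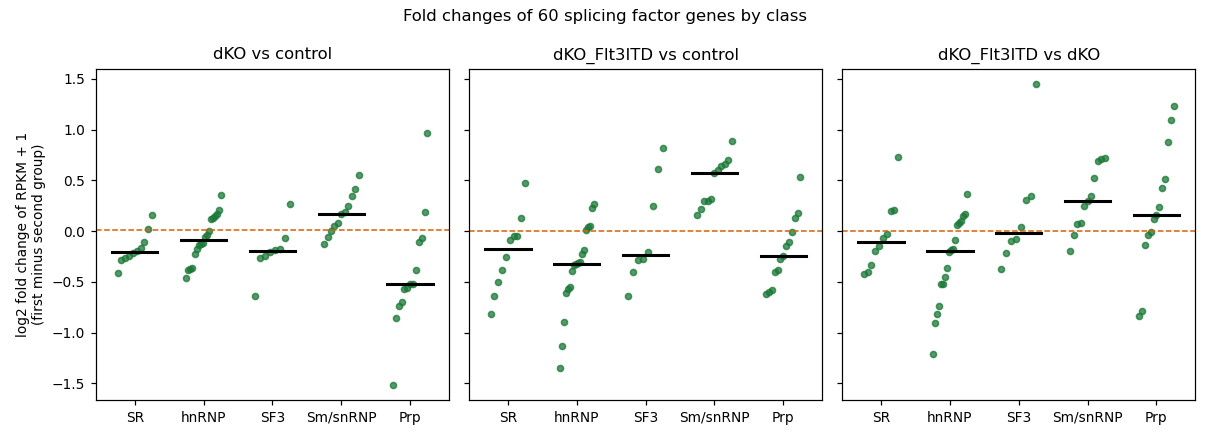
Log2 fold changes of RPKM + 1 for the 60 genes, 1 point per gene, grouped by class in 3 comparisons. Black bars are class medians and the dashed line is the median of all 10690 genes tested. All 11 Sm and snRNP genes lie above 0 in dKO_Flt3ITD against control, where Hnrnph2 is the lowest point at -1.35.

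The set's levels spanned more than 3 orders of magnitude on the per-length RPKM scale. Over the 12 libraries Snrpg averaged 1363 RPKM, Snrpe 1130.5, Hnrnpk 705 and Srsf2 648. Hnrnpa1 averaged 0.855 RPKM, Prpf40b 2.29, Prpf19 2.34 and Hnrnph3 3.48. Summed over the set, the 60 genes took 1.76% ± 0.0869 of the table's summed RPKM in the controls, 1.57% ± 0.121 in the dKO libraries and 1.45% ± 0.135 in the dKO_Flt3ITD libraries (SD, n = 4 each). The hnRNP genes accounted for 0.522%, 0.456% and 0.307% in that order, the SR genes for 0.390%, 0.296% and 0.262%, and the Sm and snRNP genes for 0.678%, 0.677% and 0.746%. In summed RPKM the whole set stood at 10521 ± 814, 10339 ± 1039 and 10476 ± 2108 in the same order, so the group means of the sum were close. dKO_Flt3ITD 1 had the set's highest sum (13592 RPKM) and its lowest share (1.27%). Of the recovered reads the whole set took 2.19%, 1.93% and 1.76%. These shares and sums are descriptions with no test.

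**Figure D2:**
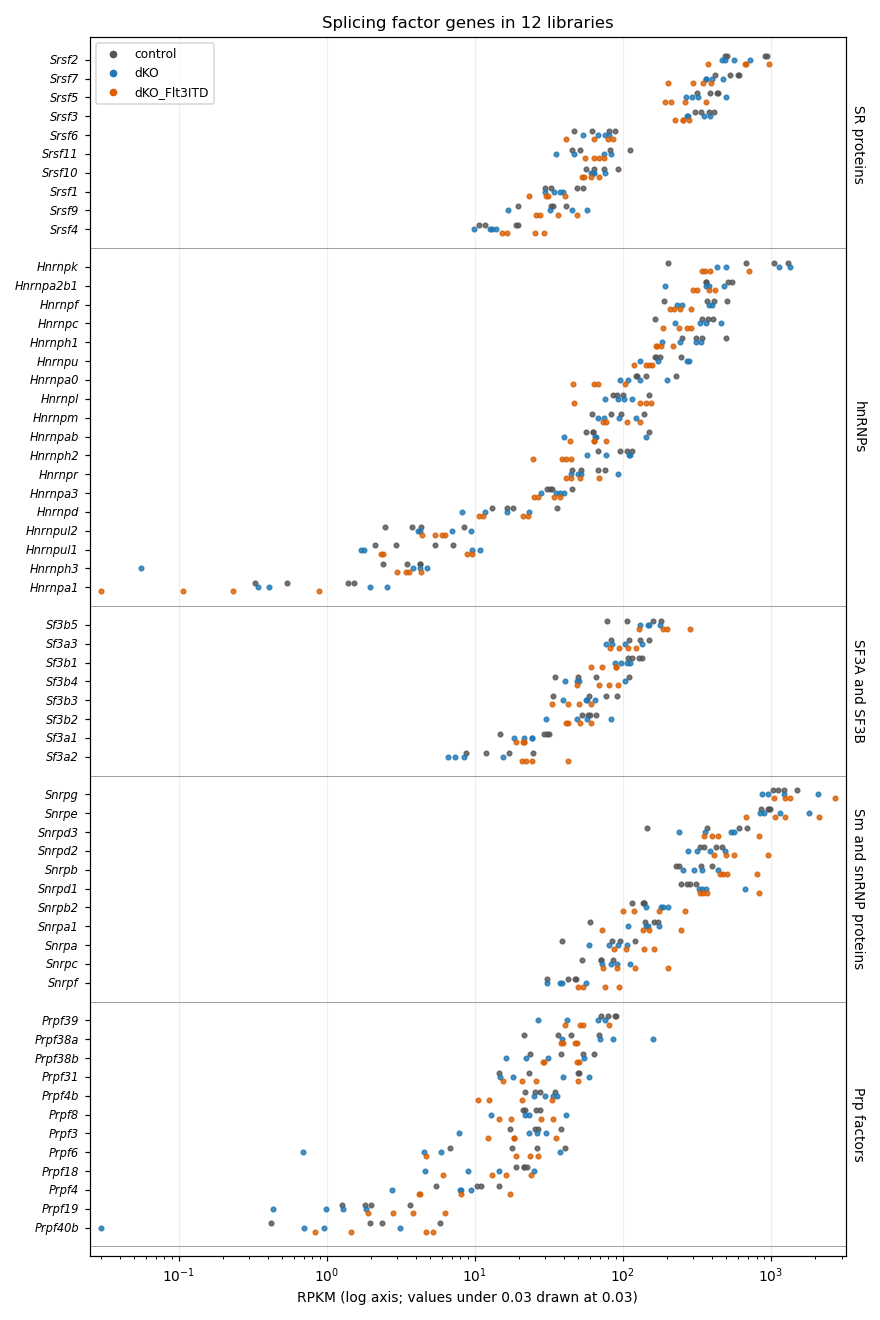
RPKM of 59 of the 60 splicing factor genes in every library, on a log axis, with 1 point per library coloured by genotype. Genes are ordered within class by their mean over 12 libraries, from Snrpg at 1363 RPKM to Hnrnpa1 at 0.855. Values under 0.03 are drawn at 0.03.

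The Sm and snRNP genes encode the Sm ring and proteins of the U1 and U2 snRNPs. In dKO_Flt3ITD against control none of the 11 passed the test, but all 11 log2 fold changes were positive, with a median of 0.57 against 0.00 for all genes tested. The other 49 splicing factor genes had a median of -0.27, with 13 positive. In dKO against control the Sm and snRNP median was 0.17 with 9 of 11 positive, and in dKO_Flt3ITD against dKO it was 0.30 with 9 of 11 positive. These genes are short, with a median transcript of 813 nt and 10 of 11 under 1300 nt, and the 1656 tested genes under 1300 nt had medians of 0.34, 0.15 and 0.18 in the same 3 comparisons. With each library's trend on transcript length removed, the Sm and snRNP median in dKO_Flt3ITD against control was 0.16 with 6 of 11 positive. Without the libraries numbered 1 of all 3 groups it was 0.13 with 8 of 11 positive, and without dKO_Flt3ITD 1 alone 0.33 with 9 of 11. Rescaling every library to the same summed RPKM, which moved the median of all genes to -0.11, -0.21 and -0.09 in dKO against control, dKO_Flt3ITD against control and dKO_Flt3ITD against dKO, gave 0.31 with 9 of 11. Quantile normalization gave 0.25 with 9 of 11. In dKO against control the median was 0.03 with 7 of 11 positive without dKO 1, 0.03 rescaled, 0.01 with quantile normalization and 0.00 with the length trend removed. Its sign turned with array weights (-0.03) and without the libraries numbered 1 (-0.15). In dKO_Flt3ITD against dKO it was 0.01 with 6 of 11 positive without dKO_Flt3ITD 1, and 0.03 with 7 of 11 positive with the length trend removed.

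**Figure D3:**
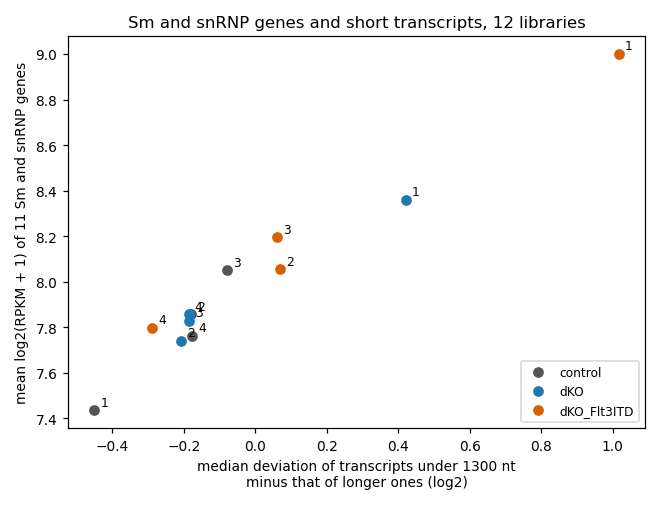
Mean log2(RPKM + 1) of the 11 Sm and snRNP genes in each library, plotted against how high transcripts under 1300 nt stand over longer ones in that library (log2, relative to the mean of all 12 libraries). Numbers are replicates. dKO_Flt3ITD 1 and dKO 1 are highest on both axes and control 1 is lowest on both, and the Sm and snRNP genes are themselves among the short transcripts.

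Snrpb encodes the core Sm proteins B and B′ (chromosome 2, 130171414 to 130179403, minus strand, GRCm38). Its values were 238, 337, 401 and 229.7 RPKM in the controls, 441, 254, 345 and 304 in dKO, and 807, 475, 505 and 449.8 in dKO_Flt3ITD. The dKO_Flt3ITD libraries lay above all 8 others, with dKO_Flt3ITD 1 far above its own group in RPKM. As a share of each library's summed RPKM dKO_Flt3ITD 1 did not stand apart, with 0.0754%, 0.0746%, 0.0758% and 0.0781% in dKO_Flt3ITD against at most 0.0611% in the other 8. The difference from control was 0.89 (SE 0.30, limma adjusted p = 0.177) and that from dKO 0.72 (SE 0.30, adjusted p = 0.585), so neither passed. Snrpb has a near-identical paralog, Snrpn, not analysed here, and how reads shared by the pair were counted is not given in the sources used here.

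Snrpd1 encodes the Sm D1 protein. It stood at 271, 247, 309.8 and 282 RPKM in the controls, 672, 366, 328 and 343 in dKO, and 826, 347, 368 and 329.9 in dKO_Flt3ITD. Every mutant library was above every control, and libraries numbered 1 stood far above the other 3 of each mutant group. Its differences from control were 0.56 in dKO (SE 0.33, limma adjusted p = 0.704) and 0.64 in dKO_Flt3ITD (SE 0.33, adjusted p = 0.413). Snrpf, the Sm F protein, was at 47.4, 42.4, 47.9 and 30.7 RPKM in control, 56.5, 38.8, 37.6 and 31.0 in dKO, and 94.3, 53.9, 75.3 and 49.9 in dKO_Flt3ITD. Its dKO_Flt3ITD libraries lay above all controls but overlapped dKO, with a difference from control of 0.66 (SE 0.33, limma adjusted p = 0.398). Its exons overlap those of Ccdc38 on the opposite strand, and whether the counting used strand is not given, so its level is uncertain.

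Snrpd2, which encodes Sm D2, had 334, 423, 467 and 352 RPKM in control, 489, 275, 386 and 318 in dKO, and 962, 499, 567 and 415 in dKO_Flt3ITD. The 3 groups overlapped, and the difference between dKO_Flt3ITD and dKO was 0.69 (SE 0.30, limma adjusted p = 0.612). Snrpb2, a U2 snRNP protein, had 139.5, 139, 115 and 136 RPKM in control, 201, 188, 143 and 179.9 in dKO, and 265, 175, 119.8 and 99.9 in dKO_Flt3ITD. All dKO libraries lay above all controls (difference 0.41, SE 0.31, limma adjusted p = 0.811), while the dKO_Flt3ITD libraries lay on both sides of them. Snrpc, the U1 snRNP protein C, had 52.8, 71.6, 85.6 and 71.6 RPKM in control, 111, 72.8, 83.1 and 91.4 in dKO, and 201, 73.6, 121 and 91.7 in dKO_Flt3ITD. Its groups overlapped throughout, with a difference of 0.70 between dKO_Flt3ITD and control (SE 0.33, limma adjusted p = 0.372).

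Snrpg and Snrpe, the Sm G and E proteins, were the most abundant of the set per length. Snrpg had 1493, 1036, 1119 and 1221 RPKM in control, 2066, 1218, 959.8 and 877 in dKO, and 2707, 1251, 1355 and 1053 in dKO_Flt3ITD. Snrpe had 989, 859, 968 and 955 RPKM in control, 1802, 1144, 896 and 845 in dKO, and 2121, 1072, 1242 and 674 in dKO_Flt3ITD. Each had its highest value in dKO_Flt3ITD 1 and its next highest in dKO 1, and the groups overlapped. Both genes are known to have processed copies elsewhere in the genome, so their levels are uncertain. Snrpd3, Snrpa and Snrpa1, encoding Sm D3 and the U1 A and U2 A′ proteins, had differences between dKO_Flt3ITD and control of 0.30, 0.60 and 0.16, none of them past the test. Snrpd3 and Snrpa have exons that overlap another gene's on the opposite strand, and Snrpa1 on the same strand.

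**Figure D4:**
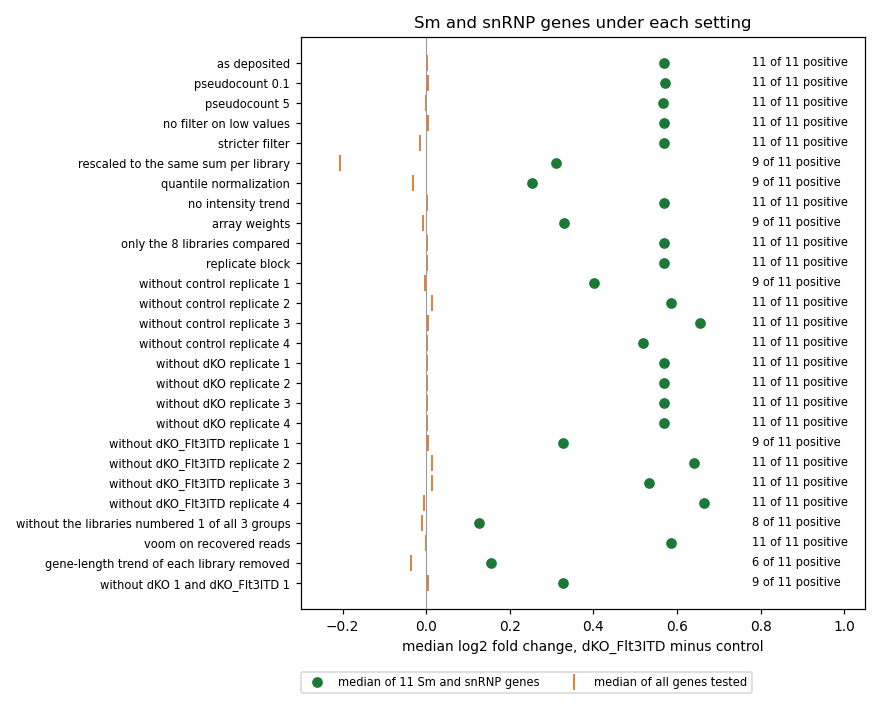
Median log2 fold change of the 11 Sm and snRNP genes in dKO_Flt3ITD against control under each way of processing the values, with the median of all genes tested and the number of the 11 that are positive. The median is 0.57 as deposited, 0.16 with the gene-length trend removed and 0.13 without the libraries numbered 1, and it is above 0 under every setting shown.

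The SF3 genes encode subunits of SF3A and SF3B, the U2 snRNP subcomplexes at the branch point. None of the 8 passed in any comparison, and their medians were -0.20 in dKO against control (1 of 8 positive), -0.24 in dKO_Flt3ITD against control (3 of 8) and -0.02 in dKO_Flt3ITD against dKO (4 of 8). Sf3b1, the branch-point subunit that is recurrently mutated in human myelodysplasia (chromosome 1, 54985169 to 55027481, minus strand), had 134, 108, 115 and 129 RPKM in control. It had 96.9, 111, 89.1 and 107 in dKO and 61.3, 89.3, 72.6 and 89.6 in dKO_Flt3ITD. All dKO_Flt3ITD libraries lay below all controls, and the dKO libraries overlapped both groups. The difference between dKO_Flt3ITD and control was -0.64 (95% interval -1.21 to -0.08, limma adjusted p = 0.296). Its spread around the group means was the smallest of the set, 0.19 on the log2 scale.

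Sf3a2, an SF3A subunit, had the largest difference of the set between dKO_Flt3ITD and dKO. It stood at 24.5, 11.9, 8.69 and 17.0 RPKM in control, 8.48, 15.5, 7.32 and 6.54 in dKO, and 22.2, 24.2, 42.7 and 20.7 in dKO_Flt3ITD. In RPKM, though not after rescaling to equal sums, the dKO_Flt3ITD libraries lay above all dKO libraries. They overlapped control. The difference from dKO was 1.45 (SE 0.43, limma adjusted p = 0.351) and did not pass. Its exons overlap those of Plekhj1 on the opposite strand, so its level is uncertain without knowing how strand was used.

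Sf3a1, another SF3A subunit, had 14.7, 30.6, 31.7 and 29.5 RPKM in control, 18.5, 24.4, 24.2 and 21.4 in dKO, and 21.6, 21.1, 21.5 and 18.9 in dKO_Flt3ITD. Control 1 was the lowest of the 12 libraries and the other 3 controls the highest. Sf3b5, a small SF3B subunit, had 78.5, 179.8, 159.7 and 107 RPKM in control, 147, 130.5, 177 and 151 in dKO, and 284, 198, 186 and 129 in dKO_Flt3ITD. Sf3a3 had 83.4, 111, 149 and 130.0 RPKM in control, 84.7, 76.9, 103 and 135 in dKO, and 123, 108, 81.5 and 93.8 in dKO_Flt3ITD. Neither gene separated any pair of groups. Sf3b2, Sf3b3 and Sf3b4 had differences between dKO_Flt3ITD and control of -0.27, -0.41 and 0.24, and Sf3b3 shares exon sequence with Cog4 on the opposite strand.

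The Prp genes encode tri-snRNP proteins, kinases and other factors that assemble and activate the spliceosome. None of the 13 passed, and their medians were -0.52 in dKO against control (2 of 13 positive), -0.25 in dKO_Flt3ITD against control (3 of 13) and 0.16 in dKO_Flt3ITD against dKO (8 of 13). The count of 2 positive in dKO against control was the same after rescaling, quantile normalization and removal of the length trend, and was 4 without dKO 1 and 4 without all libraries numbered 1. Prpf6, a scaffold protein of the tri-snRNP, had 6.83, 17.7, 26.5 and 40.8 RPKM in control, 0.686, 4.56, 5.91 and 37.8 in dKO, and 4.65, 19.1, 26.9 and 23.6 in dKO_Flt3ITD. Its spread of 1.37 on the log2 scale was the largest of the set, and dKO 4 stood apart from the other 3 dKO libraries. The difference of -1.52 between dKO and control (SE 0.79, limma adjusted p = 0.627) did not pass.

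Prpf38a, a protein needed for spliceosome activation, was the only one of the 60 with an unadjusted limma p under 0.05 in dKO against control. It had 21.6, 44.9, 68.6 and 36.3 RPKM in control, 161, 86.1, 38.5 and 69.8 in dKO, and 39.2, 38.2, 49.3 and 47.7 in dKO_Flt3ITD. All dKO libraries but dKO 3 lay above every control. The difference was 0.97 (SE 0.42, limma adjusted p = 0.471), and that of dKO_Flt3ITD from dKO -0.84 (SE 0.42, adjusted p = 0.677). Its paralog Prpf38b had group means of 45.1, 31.1 and 39.5 RPKM over the control, dKO and dKO_Flt3ITD libraries.

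Prpf39, a U1 snRNP-associated protein, had 88.5, 79.6, 90.6 and 71.2 RPKM in control, 26.5, 68.4, 41.6 and 75.4 in dKO, and 40.5, 80.2, 53.6 and 51.1 in dKO_Flt3ITD. Only dKO 4 and dKO_Flt3ITD 2 reached the range of the controls. The difference between dKO and control was -0.73 (SE 0.36, limma adjusted p = 0.568), and its exons overlap those of Fkbp3 on the opposite strand. Prpf18, a second-step factor, had 18.97, 21.3, 21.5 and 22.5 RPKM in control, 14.5, 4.58, 8.93 and 24.9 in dKO, and 13.1, 6.11, 16.2 and 23.8 in dKO_Flt3ITD. The controls were close together and the mutant libraries spread around and below them (dKO against control -0.85, SE 0.49, limma adjusted p = 0.693).

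Prpf19, the ubiquitin ligase of the Prp19 complex, was low, with 3.63, 1.9965, 1.81 and 1.26 RPKM in control, 1.85, 0.995, 1.29 and 0.432 in dKO, and 1.91, 2.79, 6.31 and 3.84 in dKO_Flt3ITD. Each dKO_Flt3ITD value was above each dKO value in RPKM, though not after rescaling or quantile normalization. The difference was 1.10 (SE 0.48, limma adjusted p = 0.612). Prpf4b, a kinase of the spliceosome, had 25.4, 21.8, 34.6 and 27.4 RPKM in control, 35.7, 33.6, 30.02 and 24.97 in dKO, and 20.8, 12.5, 10.5 and 33.2 in dKO_Flt3ITD. Only dKO_Flt3ITD 4 lay within the dKO range, and the difference from dKO was -0.79 (SE 0.39, limma adjusted p = 0.661). Prpf8, the protein at the spliceosome's catalytic centre, had 21.8, 27.6, 21.0 and 26.0 RPKM in control, 41.6, 21.7, 23.1 and 12.8 in dKO, and 17.5, 33.9, 14.5 and 27.9 in dKO_Flt3ITD. Its group means of 24.1, 24.8 and 23.4 RPKM were close, and the 95% intervals of its differences from control ran from -0.92 to 0.78 in dKO and from -0.96 to 0.75 in dKO_Flt3ITD.

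Prpf31, a tri-snRNP protein mutated in inherited retinal degeneration, had 23.2, 49.5, 50.4 and 14.5 RPKM in control, 14.7, 18.01, 39.4 and 59.0 in dKO, and 50.2, 15.4, 20.7 and 26.0 in dKO_Flt3ITD. Its libraries varied as widely within each genotype as between them. Prpf40b had 1.95, 2.35, 0.419 and 5.83 RPKM in control, 3.13, 0.707, 0.0112 and 0.952 in dKO, and 1.46, 0.832, 4.65 and 5.20 in dKO_Flt3ITD, with 1 read in dKO 3. Prpf3 and Prpf4, both tri-snRNP proteins, had differences from control of -0.38 and -0.52 in dKO and of -0.39 and -0.40 in dKO_Flt3ITD.

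The SR genes encode exon-binding proteins with arginine and serine repeats. None of the 10 passed, and their medians were -0.21 in dKO against control (2 of 10 positive), -0.17 in dKO_Flt3ITD against control (2 of 10) and -0.11 in dKO_Flt3ITD against dKO (3 of 10). The second of these counts was 5 of 10 with array weights, without control 1 or without dKO_Flt3ITD 1. Srsf7 (chromosome 17, 80200080 to 80207307, minus strand), which also acts in messenger RNA export, had 599, 420.4, 532 and 605 RPKM in control. It had 365, 474, 403 and 367 in dKO and 297, 393, 202 and 351 in dKO_Flt3ITD. The dKO_Flt3ITD libraries lay below all controls, and the difference was -0.82 (95% interval -1.40 to -0.24, limma adjusted p = 0.177). In dKO it was -0.42 (SE 0.27, limma adjusted p = 0.753).

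Srsf3, the smallest SR protein, varied little, with a spread of 0.20 on the log2 scale. It had 309, 382, 414 and 335 RPKM in control, 273, 277, 351 and 388 in dKO, and 281, 253, 225 and 254 in dKO_Flt3ITD. Its dKO_Flt3ITD libraries also lay below all controls (difference -0.50, SE 0.25, limma adjusted p = 0.398). Srsf2, which is recurrently mutated in human myeloid disease, had 935, 502, 489 and 914 RPKM in control, 567, 723, 466 and 493 in dKO, and 377, 968, 664 and 679 in dKO_Flt3ITD. Control and dKO_Flt3ITD libraries lay at both ends of its range, and its differences from control were -0.29 in dKO and -0.09 in dKO_Flt3ITD, with 95% intervals of -0.98 to 0.41 and -0.78 to 0.61.

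Srsf1, the founding SR protein, had 49.2, 54.1, 32.9 and 30.0 RPKM in control, 39.4, 34.0, 37.7 and 29.8 in dKO, and 23.1, 40.4, 31.0 and 30.0 in dKO_Flt3ITD. The groups overlapped, with a difference of -0.39 between dKO_Flt3ITD and control (95% interval -1.08 to 0.31). Srsf4 had 19.6, 10.7, 11.8 and 18.9 RPKM in control, 13.9, 12.6, 9.82 and 13.1 in dKO, and 16.6, 15.3, 29.5 and 25.5 in dKO_Flt3ITD. Every dKO_Flt3ITD library was above every dKO library in RPKM (difference 0.73, SE 0.38, limma adjusted p = 0.688), though not after rescaling. Control overlapped both. Srsf9 had 41.0, 33.7, 32.7 and 19.6 RPKM in control, 57.1, 45.0, 32.1 and 16.7 in dKO, and 26.0, 27.5, 49.2 and 36.2 in dKO_Flt3ITD.

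Srsf10, an SR protein that acts mainly as a splicing repressor when dephosphorylated, had 74.8, 63.8, 92.7 and 56.2 RPKM in control, 64.1, 75.7, 62.6 and 60.6 in dKO, and 52.6, 54.7, 69.2 and 61.0 in dKO_Flt3ITD. Its spread of 0.22 was among the 4 smallest of the 56 splicing factor genes with a mean of at least 5 RPKM. Srsf5 had an unadjusted limma p of 0.0414 in dKO_Flt3ITD against control, with means of 258 and 394 RPKM and a difference of -0.64, and an adjusted p of 0.346. Srsf6 and Srsf11 differed from control by 0.02 and -0.26 in dKO and by -0.05 in dKO_Flt3ITD for both.

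The hnRNP genes encode proteins that package nascent RNA and regulate exon choice. In dKO_Flt3ITD against control 1 of 18 passed, Hnrnph2, and 5 of 18 were positive, with a median of -0.32. The class medians were -0.09 in dKO against control (6 of 18 positive) and -0.20 in dKO_Flt3ITD against dKO (6 of 18). After rescaling, quantile normalization and removal of the length trend, 2, 3 and 4 of 18 were positive in dKO_Flt3ITD against control. The summed RPKM of the 18 genes was 2479 to 3839 in control, 2457 to 3615 in dKO and 1949 to 2454 in dKO_Flt3ITD, so the highest dKO_Flt3ITD library and the lowest dKO library nearly met. As a share of the table dKO_Flt3ITD 4 (0.426%) was above dKO 1 (0.315%) and below every control (0.471% or more).

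Hnrnph2 (chromosome X, 134601179 to 134607060, plus strand) stood at 67.9, 106, 115 and 96.0 RPKM in the controls, 57.7, 76.4, 112 and 110.4 in dKO, and 39.1, 41.5, 24.5 and 44.3 in dKO_Flt3ITD. In RPKM every dKO_Flt3ITD library was below every library of the other 2 groups, and dKO overlapped control. As a share of summed RPKM dKO 1 (0.00695%) was below dKO_Flt3ITD 4 (0.00769%), and every control was still above every dKO_Flt3ITD library. Against control the group means were 37.4 ± 8.80 and 96.2 ± 20.4 RPKM (SD, n = 4), a 2.55-fold difference on the RPKM + 1 scale, with a 95% interval of the log2 difference from -2.04 to -0.65. The difference between dKO_Flt3ITD and dKO was similar in size, -1.21 (95% interval -1.91 to -0.52), but no gene passed in that comparison and its limma adjusted p was 0.307. In dKO against control it was -0.13 (95% interval -0.83 to 0.56, limma adjusted p = 0.964). The call in dKO_Flt3ITD against control lies at the threshold: it was kept under 8 of 26 alternatives, with adjusted p between 0.0127 and 0.142, and the log2 difference stayed between -1.60 and -1.16. It was lost on leaving out control 2, 3 or 4, dKO 2, 3 or 4 or any 1 dKO_Flt3ITD library (adjusted p from 0.0512 to 0.142), and with voom on the recovered reads (adjusted p = 0.102). It was also lost with the replicate block (adjusted p = 0.0803), with a pseudocount of 0.1 or 5, without a filter, without the intensity trend, with only the 8 libraries compared and without dKO 1 and dKO_Flt3ITD 1 together (adjusted p from 0.0537 to 0.110).

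Hnrnph1, the autosomal paralog of Hnrnph2 (chromosome 11, 50376990 to 50386528, plus strand), had 495, 343, 250.1 and 313 RPKM in control, 338, 314, 242 and 185 in dKO, and 169, 217, 179.8 and 169 in dKO_Flt3ITD. It too had every dKO_Flt3ITD library below every control, with a difference of -0.89 (95% interval -1.50 to -0.28, limma adjusted p = 0.163) that did not pass. The paralogs are similar in sequence, and how reads that match both were counted is not given. The ratio of Hnrnph1 to Hnrnph2 ranged from 1.67 in dKO 4 to 7.32 in dKO_Flt3ITD 3, and it was 2.18 in control 3 and 7.29 in control 1, so the 2 genes did not keep a fixed proportion within a genotype. Hnrnpa0, an hnRNP of the A/B family encoded by a single exon (chromosome 13, 58125879 to 58128556, minus strand), had 227, 125, 144 and 123 RPKM in control, 198, 131, 108 and 95.5 in dKO, and 67.9, 63.9, 46.3 and 104 in dKO_Flt3ITD. Its dKO_Flt3ITD libraries lay below all controls, and dKO_Flt3ITD 4, the library with the highest granulocyte marker sum, lay within the dKO range. The difference was -1.14 from control (95% interval -1.85 to -0.42, limma adjusted p = 0.120) and -0.91 from dKO (SE 0.34, adjusted p = 0.529).

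**Figure D5:**
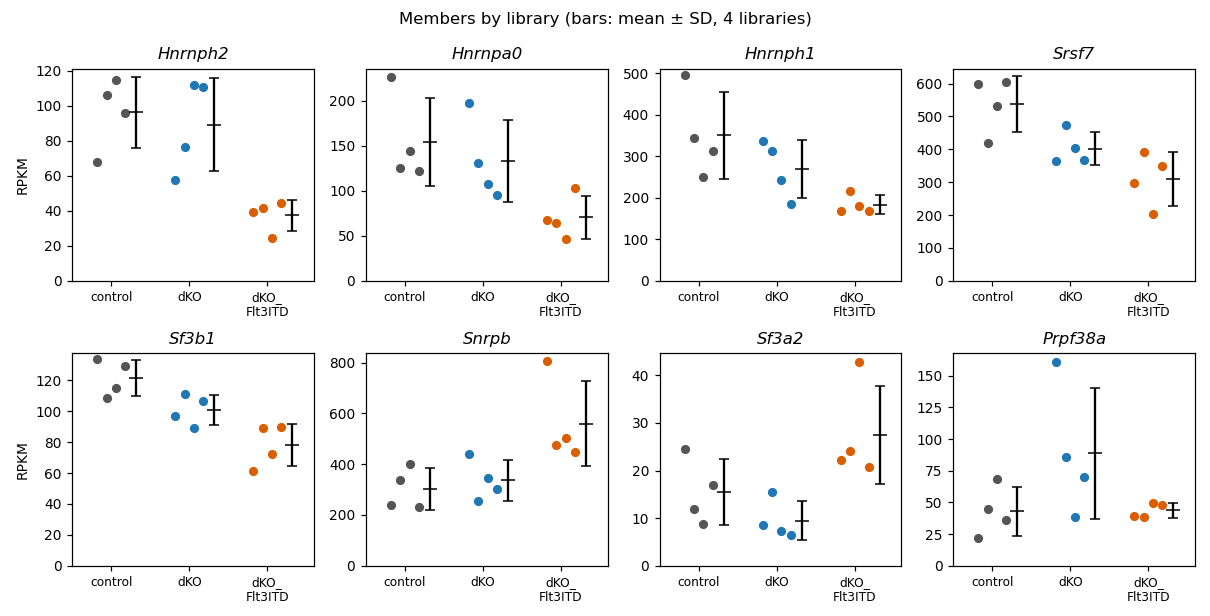
RPKM of 8 splicing factor genes in each library, with replicates 1 to 4 from left to right in each group and bars for the mean and SD of 4 libraries. Hnrnph2 lies at 24.5 to 44.3 in dKO_Flt3ITD and at 57.7 or more in every other library, while Snrpb lies at 449.8 or more in dKO_Flt3ITD and at 441 or less elsewhere.

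Hnrnpu, a nuclear matrix-associated hnRNP, had 247, 168, 165 and 178 RPKM in control, 279, 271, 131 and 173 in dKO, and 149.5, 158, 143 and 119 in dKO_Flt3ITD. Its dKO_Flt3ITD libraries lay just below the controls, with a difference of -0.40 (SE 0.30, limma adjusted p = 0.616). Hnrnpk, a poly(C)-binding protein and the most abundant hnRNP here, had 201, 1051, 1299.9 and 678 RPKM in control, 501, 435, 1142 and 1340.1 in dKO, and 391, 344, 357 and 716 in dKO_Flt3ITD. It varied widely within every genotype (spread 0.89), and its differences from control were 0.21 in dKO and -0.61 in dKO_Flt3ITD (SE 0.51 for both). Its exons overlap those of Rmi1 on the opposite strand, so its level is uncertain.

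Hnrnpa2b1, an A/B-type hnRNP also known for RNA transport, had 362, 517, 548 and 366 RPKM in control, 192, 385, 362 and 480.4 in dKO, and 317, 381, 299 and 417 in dKO_Flt3ITD. Its groups overlapped, with differences from control of -0.39 and -0.33. Hnrnpa3 was among the steadiest genes, with 45.0, 33.2, 32.4 and 30.5 RPKM in control, 40.0, 28.1, 35.1 and 37.4 in dKO, and 34.4, 37.4, 26.9 and 24.99 in dKO_Flt3ITD. Hnrnpul1 had 5.35, 7.09, 2.92 and 2.13 RPKM in control, 10.9, 9.51, 1.71 and 1.79 in dKO, and 2.33, 2.40, 8.88 and 9.56 in dKO_Flt3ITD. Within each mutant genotype its libraries split into a high and a low pair, and its spread was 0.93.

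Hnrnph3 had 3.50, 2.41, 4.23 and 4.25 RPKM in control, 0.0552, 3.85, 4.77 and 4.28 in dKO, and 4.35, 3.59, 2.99 and 3.44 in dKO_Flt3ITD. Only dKO 1, with 2 reads, stood apart. Hnrnpa1, a major hnRNP in most cells, was listed at 0.538, 1.52, 1.40 and 0.325 RPKM in control, 0.406, 0.342, 2.55 and 1.96 in dKO, and 0.881, 0, 0.232 and 0.107 in dKO_Flt3ITD, with at most 138 reads. Many processed copies of Hnrnpa1 are known, and the treatment of reads with several positions is not given, so this low level is uncertain. The other 8 hnRNP genes (Hnrnpab, Hnrnpc, Hnrnpd, Hnrnpf, Hnrnpl, Hnrnpm, Hnrnpr and Hnrnpul2) differed between dKO_Flt3ITD and control by -0.55 (Hnrnpf) to 0.27 (Hnrnpul2), none past the test. Exons of Hnrnpab overlap another gene's on the opposite strand and those of Hnrnpm on the same strand.

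Within genotypes the set was less variable than most genes. Over the 56 members with a mean of at least 5 RPKM, the median SD of log2(RPKM + 1) around the group means was 0.46, against 0.67 over 7362 tested genes with such a mean, and 49 of the 56 were below that median. Levels were not matched in this comparison, and no test was made of it.

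Of 133 other splicing genes in the table, 130 were tested, and 1 passed in any comparison. Gemin4, a component of the SMN complex that loads Sm proteins onto small nuclear RNAs, fell in dKO_Flt3ITD against control. It had 15.7, 25.1, 16.3 and 23.6 RPKM in control, 14.1, 6.02, 5.68 and 27.0 in dKO, and 3.21, 4.98, 5.68 and 2.66 in dKO_Flt3ITD. All dKO_Flt3ITD libraries were below all controls, by 2.06 on the log2 scale (SE 0.50, limma adjusted p = 0.0478). The call was kept under 8 of 26 alternatives, with adjusted p between 0.0323 and 0.130, and among the fits without 1 library it was kept only without dKO 2 or dKO 4. The 130 genes thus gave 1 down and 0 up in dKO_Flt3ITD against control, where 1.5% of all genes tested passed (0.505% down). They gave 0 in dKO against control, where 1.02% passed, and 0 in dKO_Flt3ITD against dKO, where 0% passed.

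By list, dKO_Flt3ITD against control gave a median of 0.32 for 9 LSm genes (7 positive), 0.14 for 17 other snRNP genes (11 positive), 0.02 for 9 SMN complex genes (5 positive) and 0.10 for 8 U2AF and branch point genes (4 positive). It gave 0.19 for 13 exon junction complex genes (9 positive), -0.04 for 21 genes of the Prp19 complex and helicases (10 positive), -0.34 for 21 SR kinases and SR-related genes (5 positive) and -0.28 for 32 other regulators (9 positive). All tested genes under 1300 nt had a median of 0.34 in this comparison. Within its group dKO_Flt3ITD 1 was highest for every LSm gene but Lsm2 and Lsm11, with Lsm7 at 933 RPKM against 386 to 506. The part of transcript length in the LSm median was not tested. The gene with the smallest p in each list, other than Gemin4, was Lsm2 (difference 0.80, limma adjusted p = 0.226), Clk4 (-1.08, 0.112), Rbm5 (-0.87, 0.256), Snrnp25 (0.81, 0.440), Bud31 (0.44, 0.645), Zrsr1 (0.94, 0.510) and Upf2 (-0.74, 0.517). Clk4, a kinase that phosphorylates SR proteins, had 161, 113, 129.6 and 123 RPKM in control, 92.9, 98.1, 123 and 121 in dKO, and 42.5, 82.9, 89.1 and 43.8 in dKO_Flt3ITD. Its dKO_Flt3ITD libraries lay below every library of the other groups, and its difference did not pass.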

How the data were processed

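Libraries were prepared from 100 sorted cells each with a full-length cDNA kit (per the labels' protocols). Alignment and counting tools listed in the submitters' processing notes are TopHat2 2.0.10, HTSeq 0.5.4p5 and SAMtools 0.1.19, on mm10. The authors deposited RPKM for 13016 genes, and how they set the total they divided by is not given in the sources used here. Low RPKM values step by whole reads, which were recovered for 99.96% of genes to within 0.001 read. Replicates differed by far more than counting noise (chi-square per degree of freedom of 106 or more), and reads amplified from few cells are not independent molecules.

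The filter kept 10690 genes that reached 1 RPKM in 4 or more libraries. They were fitted together as log2(RPKM + 1) by limma 3.58.1 (R 4.3.3), trend on, over all 12 libraries, with Benjamini-Hochberg adjustment at 0.05. Low genes' changes are understated on this scale. The spread of a gene is the SD of its log2 values around its group means. The fit was tested on simulated data. Positions and exon overlaps came from GENCODE on GRCm38, promoters from RefSeq.

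The members and lists were chosen with earlier results of these data known. Named genes are those called, the 4 up and 4 down with the smallest p per comparison, the 2 highest and 2 lowest of each class, the 4 most and 4 least variable, and Sf3b1, Srsf2, Prpf8, Srsf1 and Snrpb. Of other splicing genes, those called or 1 per list are named. Members outside this rule were named after their values were seen. Some items are not reported here. Python 3.11.15, numpy 2.4.6, pandas 2.3.3 and matplotlib 3.10.9 were used.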

Additional observations from a re-analysis of the deposited data

Results flagged for a closer look

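Within groups of 4, 8 of 114 sets of values from the 38 named splicing factor genes held 1 library whose distance to the next exceeded the 95% limit of Dixon's test. About 1 in 20 such groups is expected to do so by chance if values are normal and genes unselected. Many of these genes were picked for small p or extreme spread in the same data. RPKM may also carry a scale of each library, so that rate is no baseline for this count. Snrpd1 stood at 826 RPKM in dKO_Flt3ITD 1, where the other 3 libraries were at 329.9 to 368, and at 672 in dKO 1, where they were at 328 to 366. Snrpb stood at 807 RPKM in dKO_Flt3ITD 1, against 449.8 to 505 in the others. The summed RPKM of dKO_Flt3ITD 1 was 1071041, against 576131 to 666626 in the rest of its group. As a share of that sum Snrpb was 0.0754% there and 0.0746% to 0.0781% in the others, so it did not stand apart, while Snrpd1 was 0.0771% there and 0.0545% to 0.0573% in the others. In dKO 1 the share of Snrpd1 was 0.0810%, against 0.0515% to 0.0661% in the others of that group. The limit was applied to RPKM and not to shares. The libraries dKO 1 and dKO_Flt3ITD 1 are those in which transcripts under 1300 nt were highest against longer ones. Hnrnpk was at 716 RPKM in dKO_Flt3ITD 4, against 344 to 391 in the others of its group (as shares 0.124%, against 0.0365% to 0.0540%). Prpf6 was at 37.8 RPKM in dKO 4, against 0.686 to 5.91 (as shares 0.00591%, against 0.000083% to 0.000927%). Sf3a2 was at 42.7 RPKM in dKO_Flt3ITD 3, against 20.7 to 24.2 (as shares 0.00641%, against 0.00207% to 0.00379%). Sf3a1 was at 14.7 RPKM in control 1, against 29.5 to 31.7 (as shares 0.00286%, against 0.00483% to 0.00494%). Snrpb2 was at 115 RPKM in control 3, against 136 to 139.5 (as shares 0.0176%, against 0.0221% to 0.0271%).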

How the results depend on the processing

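The differences recomputed were those called or with the smallest p in each direction of a comparison, each under up to 26 alternative settings. Counted per difference and setting, none changed sign and 613 kept their side of the threshold. The 36 that lost a call were all Hnrnph2 or Gemin4 in dKO_Flt3ITD against control. Picking the most extreme differences from the same data makes a change of sign unlikely, and those not called could not lose a call. These counts therefore say little about stability. The 1 splicing factor call in that comparison became 0 with a pseudocount of 0.1 or 5, without a filter, without the intensity trend, with only the 8 libraries compared, with voom, without dKO 1 and dKO_Flt3ITD 1, and with a replicate block, and was 0 to 1 without each library in turn. The median of the 11 Sm and snRNP genes in that comparison was 0.13 without the libraries numbered 1 and 0.16 with the length trend removed. Without each library in turn it was 0.33 to 0.66, and in dKO against control 0.03 to 0.32 and in dKO_Flt3ITD against dKO 0.01 to 0.46.

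All genes called numbered 109 in dKO against control, and 64 without a filter, 210 with array weights, 45 without the libraries numbered 1, 68 without dKO 1 and dKO_Flt3ITD 1, 0 with voom (932 at an unadjusted p under 0.05) and 58 to 150 without each library in turn. They numbered 160 in dKO_Flt3ITD against control, and 91 without a filter, 105 without the libraries numbered 1, 27 with voom and 94 to 187 without each library in turn. In dKO_Flt3ITD against dKO they numbered 0, and 3 with a pseudocount of 5, 1 without a filter, 1 with a minimum of 5 RPKM, 2 rescaled, 5 with quantile normalization, 2 with array weights, 1 with only 8 libraries, 1 without the libraries numbered 1, 2 with the length trend removed, 1 without dKO 1 and dKO_Flt3ITD 1 and 0 to 6 without each library in turn. The cause of these shifts was not tested. Voom, the removal of the length trend and the fit without dKO 1 and dKO_Flt3ITD 1 were chosen after seeing the data.

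On average no shared deviation of same-numbered libraries was visible. Their deviations from the group means had a mean correlation of -0.004, over a range of -0.15 to 0.13, against 0.002 for other pairs. Single same-numbered pairs differed, from -0.15 (control 1 with dKO_Flt3ITD 1) to 0.13 (control 3 with dKO 3). The pair of dKO 1 with dKO_Flt3ITD 1, the libraries where short transcripts were highest against longer ones, stood at 0.12. Deviations around a group mean sum to 0, so these mean correlations are tied to each other. They cannot tell whether replicate numbers mark pairs. With the replicate block 85, 116 and 0 genes were called in the 3 comparisons, with 0 splicing factor genes in each and an adjusted p of 0.0803 for Hnrnph2.

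With 4 libraries of 100 cells per group, 95% intervals of the splicing factor genes spanned about 1 log2 unit or more in width, which limits the precision of each difference.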
